A study of Mus musculus with 5 samples.

Results

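NEUROD2 peaks were collected at 10 cadherin genes that are studied in the developing cortex, Cdh2, Cdh4, Cdh6, Cdh7, Cdh8, Cdh9, Cdh10, Cdh11, Cdh12 and Cdh13. The genes were chosen by name, with earlier results of these data known. A locus was the transcript with the longest span in the GENCODE M21 annotation plus 50 kb at either end, and a peak belonged to it if its midpoint lay inside. The loci held 299 of the 94621 peaks of the series, and peaks that overlapped were merged into 174 regions, out of 53837 merged regions in the genome.

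NEUROD2 is a neuronal basic helix-loop-helix transcription factor, and ChIP-Seq mapped its binding in the cerebral cortex of BALB/c embryos at E14.5, a stage of cortical neurogenesis. Chromatin from pooled embryos was precipitated with 3 antibodies against NEUROD2, a mouse antibody (ab1) and a pair of rabbit antibodies (ab2 and ab3), and each gave 1 library. The controls were 2 libraries made with GFP antibodies from the same tissue. The mouse GFP library served ab1, and the rabbit GFP library served both ab2 and ab3, so that these peak lists share a control. All libraries are of a single condition, without a treated or mutant group, and no antibody was repeated. The lists are unequal in size, since ab1 has 51841 peaks, ab2 has 35310 and ab3 has 7470. A region with peaks of at least 2 antibodies is called shared here. The score of a peak is 10 times the −log10 p-value of the peak caller, and no peak scored under 50. For a region, the highest peak of each antibody is given, and the summed score adds all of its peaks, of which an antibody can have several.

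Classical cadherins are membrane proteins that bind cadherins on neighbouring cells through their extracellular domains when calcium is present. Their cytoplasmic tails bind catenins, which link the adhesion site to the actin cytoskeleton. In the cortex they hold the neuroepithelium together, support the migration of young neurons and help to sort neurons and their synapses. Cdh2 (N-cadherin) and Cdh4 (R-cadherin) belong to type I, Cdh6 to Cdh12 belong to type II, and Cdh13 (T-cadherin) lacks the cytoplasmic tail and is held in the membrane by a GPI anchor.

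The sequences under the strongest shared regions are given first, because basic helix-loop-helix factors contact DNA at the E-box, a 6-base element with the letters CANNTG. The form searched here was an extended E-box, in which the core is followed by G or T on either strand. The cores counted were CAGATG and its reverse complement CATCTG, and the palindromes CAGCTG and CATATG. Capitals mark the cores, and a core whose extra base lies on the other strand is preceded by A or C as printed. For each gene the window lies around the midpoint of the shared region with the highest summed score, in the GRCm38.p6 (mm10) reference, plus strand. It reaches 50 bases to either side of the midpoint, or 100 where the shorter window held no motif, as at Cdh4, Cdh6 and Cdh7, so the windows were placed to show one. The windows were chr2:179762481-179762681 for Cdh4 (intron 2), chr15:13183659-13183859 for Cdh6 (upstream), chr1:109932816-109933016 for Cdh7 (upstream), chr15:18850642-18850742 for Cdh10 (intron 1), chr8:102725655-102725755 for Cdh11 (intron 1), chr15:21130812-21130912 for Cdh12 (downstream) and chr8:118263140-118263240 for Cdh13 (upstream). The strongest regions of Cdh2 and Cdh8 are not printed, the first because sequence of its chromosome is not reported here and the second because its window touches a UTR, and neither held an extended E-box in its central 200 bp.
Cdh4: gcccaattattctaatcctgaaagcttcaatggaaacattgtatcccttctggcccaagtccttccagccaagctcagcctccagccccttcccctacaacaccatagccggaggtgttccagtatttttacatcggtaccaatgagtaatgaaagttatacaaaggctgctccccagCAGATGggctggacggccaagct
Cdh6: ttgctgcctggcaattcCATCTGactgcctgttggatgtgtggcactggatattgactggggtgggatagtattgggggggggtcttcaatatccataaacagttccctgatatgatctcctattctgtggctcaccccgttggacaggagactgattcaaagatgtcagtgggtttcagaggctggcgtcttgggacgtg
Cdh7: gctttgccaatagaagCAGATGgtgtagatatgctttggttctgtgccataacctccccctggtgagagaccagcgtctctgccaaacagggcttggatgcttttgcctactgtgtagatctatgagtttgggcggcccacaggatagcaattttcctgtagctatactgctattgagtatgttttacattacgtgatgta
Cdh10: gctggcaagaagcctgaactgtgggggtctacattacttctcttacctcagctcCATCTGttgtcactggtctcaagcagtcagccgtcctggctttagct
Cdh11: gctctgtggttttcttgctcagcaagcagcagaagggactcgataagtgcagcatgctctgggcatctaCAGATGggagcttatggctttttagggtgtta
Cdh12: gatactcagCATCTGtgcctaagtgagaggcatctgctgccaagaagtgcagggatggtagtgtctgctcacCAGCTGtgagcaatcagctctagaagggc
Cdh13: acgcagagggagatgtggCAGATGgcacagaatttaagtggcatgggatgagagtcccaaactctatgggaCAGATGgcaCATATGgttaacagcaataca

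Cdh4, Cdh7 and Cdh11 each showed the core CAGATG in these windows, and Cdh6 and Cdh10 showed its reverse complement CATCTG. The Cdh12 window held 2 extended E-boxes of different cores, CATCTG and CAGCTG. The Cdh13 window held 3 extended E-boxes, CAGATG at 2 places and CATATG.

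A further pair of windows was chosen after their values were seen. The first, chr2:179561559-179561759 in intron 2 of Cdh4, held 4 extended E-boxes, all CATCTG, inside a stretch rich in short repeats of the letters catc. Its region was called with ab1 at a score of 231 and with ab2 at 110. The second, chr8:102784628-102784828 in intron 1 of Cdh11, lies 914 bp from the transcription start site (TSS) and was the only window among the shared regions within 1 kb of a member TSS that held an extended E-box.
Cdh4, repeat-rich: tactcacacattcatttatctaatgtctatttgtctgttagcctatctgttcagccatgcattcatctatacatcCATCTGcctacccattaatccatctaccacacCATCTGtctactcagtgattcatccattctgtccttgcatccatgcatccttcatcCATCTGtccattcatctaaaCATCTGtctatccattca
Cdh11, near the TSS: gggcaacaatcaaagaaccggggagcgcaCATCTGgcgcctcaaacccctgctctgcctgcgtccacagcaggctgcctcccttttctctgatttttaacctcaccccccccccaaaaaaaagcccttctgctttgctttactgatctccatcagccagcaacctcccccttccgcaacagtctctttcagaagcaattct

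Of the 174 regions, 97 were shared (55.7%, 95% Wilson interval 48.3 to 62.9), beside 59.9% of all merged regions of the genome. All 3 antibodies marked 21 of the shared regions (21.6%, 14.6 to 30.8), beside 22.2% genome-wide. Sharing at the cadherin loci was therefore close to that of the genome. The shared regions were marked by ab1 and ab2 in every case, since 76 regions had exactly these 2 antibodies and no region had ab3 without both others. Without ab1, or without ab2, the shared regions were the 21 that ab3 also marked. The other 77 regions had 1 antibody, 68 with ab1 and 9 with ab2. Taken antibody by antibody, ab1 had 170 peaks at the loci, ab2 had 107 and ab3 had 22, a mean of 99.7 with an SD of 74.3 over the antibodies (n = 3).

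**Figure D1:**
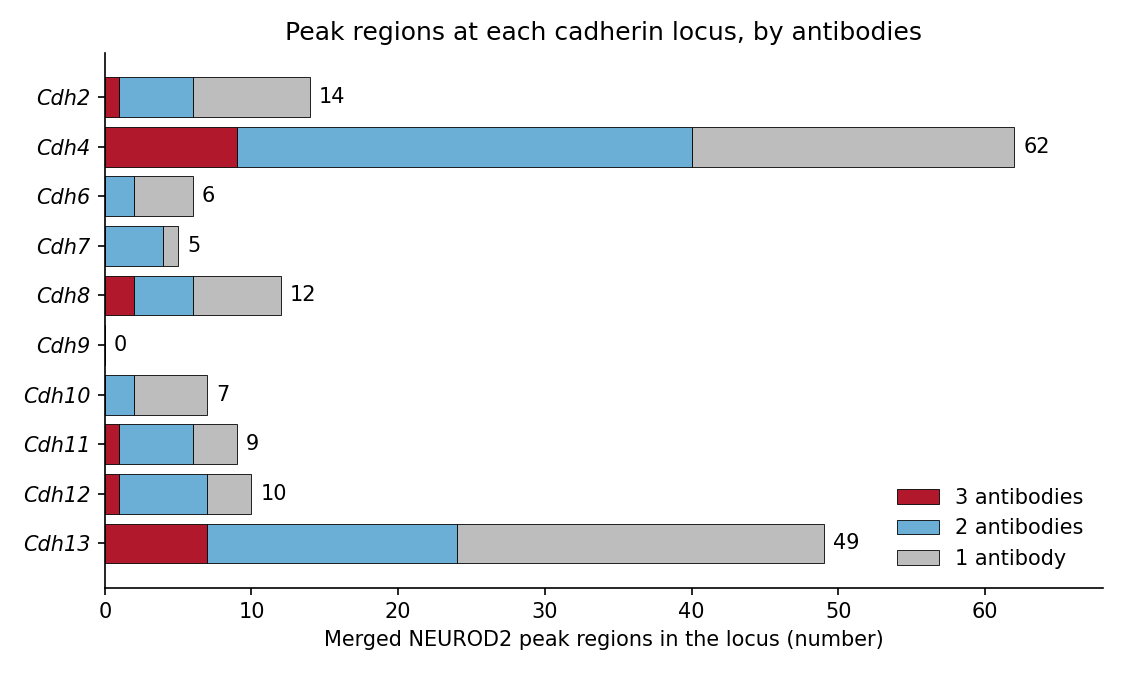
Number of merged NEUROD2 peak regions at each cadherin locus (horizontal axis, number of regions), split by how many antibodies marked them. Cdh4 with 62 regions and Cdh13 with 49 stand apart from the other loci, which hold between 0 and 14, and the bar of Cdh9 is empty.

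The regions were spread unevenly over the genes. Cdh4 and Cdh13 together held 64 of the 97 shared regions (66%) and 16 of the 21 with all 3 antibodies. The other 8 genes held 33 shared regions. By class, the type I pair had 46 shared regions, almost all at Cdh4, and the 7 type II genes had 27. The transcripts differ in length, from 128 kb (Cdh9) to 1041 kb (Cdh13), so the numbers are also given per 100 kb of locus.

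Cdh2, the N-cadherin of the neuroepithelial adherens junction, spans 220 kb on the minus strand (chr18:16588877-16809246). It had 14 regions, of which 6 were shared and 1 had all 3 antibodies. Ab1 marked 14 of them, ab2 marked 6 and ab3 marked 1. The strongest was a region 3318 bp wide in intron 1, with its midpoint 995 bp from the TSS, where the score was 1317 with ab1, 839 with ab2 and 75.3 with ab3. Its summed score of 2310 was above that of 90.9% of shared regions in the genome. A pair of regions with ab1 scores above 600 lay deep in the gene, at 74.3 kb in intron 2 (631 with ab1, 148 with ab2) and at 201 kb in intron 14 (618 with ab1, 303 with ab2). Cdh2 was thus marked both at its start and far inside the gene.

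Cdh4, the R-cadherin that is closest in sequence to N-cadherin among the members, spans 457 kb (chr2:179442431-179899373, plus strand). It was the most densely marked of the 10, with 62 regions, 40 shared regions and 9 regions with all 3 antibodies. Ab1 marked 58 of the regions, ab2 marked 44 and ab3 marked 9. All 40 shared regions lay in introns, and 33 of them, 7 with all 3 antibodies, lay in intron 2, which is 335 kb long and makes up 73.4% of the transcript. The other 7 lay in introns 1, 3, 4, 5, 6 and 7. Of the 40, 32 lay more than 100 kb from the TSS. The median gap between neighbouring shared regions was 7.37 kb, and the densest stretch of 50 kb, from 113756 to 163755 bp after the TSS, held 9. Of the other 21937 protein-coding loci, 94 (0.428%) had a stretch of 50 kb with at least 9.

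The strongest region of Cdh4 lay 320 kb from the TSS in intron 2. Its scores were 2945 with ab1, 1911 with ab2 and 347 with ab3, and its summed score of 5203 exceeded 98.4% of shared regions. This is the region whose centre is printed above with 1 CAGATG. Close to it, at 313 and 327 kb from the TSS, lay other regions with all 3 antibodies, with ab1 scores of 1045 and 1561. A second group at 156 and 158 kb scored 1577 and 978 with ab1, 732 and 715 with ab2, and 160 and 144 with ab3. These 5 regions show that the signal of intron 2 was gathered at more than 1 place. Over the 40 shared regions, ab1 scores ran from 53.1 to 2945 with a median of 244, and ab2 scores from 52.3 to 1911 with a median of 116, close to the medians of 278 and 140 over shared regions of the genome. The peak at the Cdh4 TSS itself, 397 bp into the gene, scored 467 with ab1 and 114 with ab2 and was not called with ab3. None of the 40 lay in the transcript of Taf4, although 15 of them lay nearer to the TSS of Taf4, which is 534 kb from that of Cdh4.

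**Figure D2:**
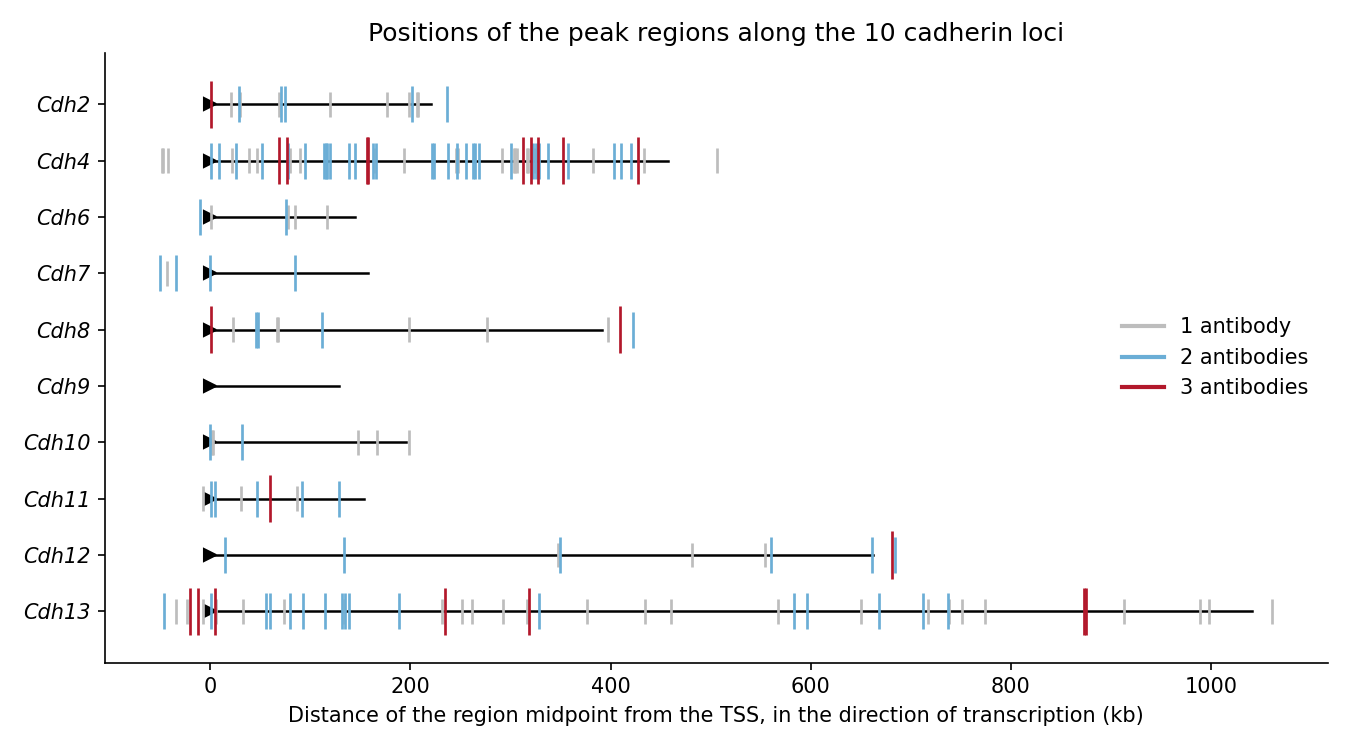
Position of every region along the 10 loci, as the distance of its midpoint from the TSS in kb in the direction of transcription (horizontal axis). Black lines are transcripts, arrowheads mark the TSS, and the colour and height of a tick give the number of antibodies. Ticks crowd intron 2 of Cdh4, thin out along Cdh13 and are absent from Cdh9.

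The type II genes carried fewer regions. Cdh6 (145 kb, chr15:13028701-13173675, minus strand), a gene with regional expression in the embryonic brain, had 6 regions, 2 of them shared. The stronger shared region lay 10.1 kb upstream of the TSS and scored 97.4 with ab1 and 85.9 with ab2. The weaker one, at 75.7 kb in intron 1, scored 56.5 and 51.2, close to the lowest score that the lists hold. The TSS was marked with ab1 alone, at 314 bp with a score of 65.8.

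Cdh7 (157 kb, chr1:109982710-110140157, plus strand) had 5 regions, of which 4 were shared and none had ab3. The 2 strongest lay upstream, at 49.8 kb with scores of 744 for ab1 and 356 for ab2, and at 33.9 kb with 530 and 302. The first of these lies just inside the 50 kb limit of the locus. Another covered exon 1, with its midpoint 118 bp from the TSS, and scored 493 with ab1 and 70.7 with ab2. It was the only shared region of the set whose midpoint lay in an exon. The last, at 84.9 kb in intron 7, scored 357 and 224.

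Cdh8 (392 kb, chr8:99024471-99416427, minus strand), which marks subsets of cortical neurons and their synapses, had 12 regions, 6 shared and 2 with all 3 antibodies. Its strongest region sat on the TSS, 3957 bp wide with the midpoint at 349 bp, and was the widest shared region of the set. It scored 2199 with ab1, 786 with ab2 and 70.8 with ab3, and the sum of 3056 exceeded 94.0% of shared regions. The other region with all 3 antibodies lay beyond the end of the gene, 410 kb from the TSS, and scored 533, 204 and 64.2. Between them, in intron 2, lay 3 weaker regions with ab1 scores from 115 to 260.

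Cdh9 (128 kb, chr15:16728756-16857094, plus strand), a cadherin of hippocampal mossy fibre synapses, had no peak of any antibody in its locus. The nearest shared region before the locus lay 75 kb upstream of the TSS, and the nearest after it lay 629 kb downstream. A list of peaks holds only signals past the caller's cutoff, so weaker binding there was not measured. Of the 21938 protein-coding loci, 14835 had a shared region and Cdh9 was among those without.

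Cdh10 (195 kb, chr15:18818947-19014236, plus strand) had 7 regions, of which 2 were shared. One lay 138 bp upstream of the TSS and scored 71.4 with ab1 and 60.5 with ab2. Its midpoint was nearer still, 35 bp, to the TSS of C030047K22Rik, so that the peak cannot be assigned to one of the 2 starts. The other, at 31.7 kb in intron 1, scored 66 with ab1 and 113 with ab2.

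Cdh11 (154 kb, chr8:102632095-102785642, minus strand), also known from mesenchyme and bone, had 9 regions and 6 shared regions, all in introns. The strongest lay 59.9 kb from the TSS in intron 1 and scored 1795 with ab1, 1087 with ab2 and 252 with ab3, a sum above that of 94.3% of shared regions. The region 914 bp from the TSS scored 839 with ab1 and 403 with ab2 and was not called with ab3. Cdh11 was therefore short but well marked, with 4 of its 6 shared regions in the 64.4 kb of intron 1.

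Cdh12 (662 kb, chr15:20449265-21111440, plus strand), a brain cadherin, had 10 regions and 7 shared regions, far apart from each other with a median gap of 110 kb. The strongest lay downstream of the transcript, 682 kb from the TSS, and scored 896 with ab1, 550 with ab2 and 65.3 with ab3. A neighbour inside intron 3, at 661 kb, scored 503 and 346. The longest transcript of Cdh12 is annotated as a processed transcript, and these counts, gaps and places follow it. With the span of all its transcripts the locus held 11 shared regions instead of 7. With the longest transcript, 6 of the shared regions lay nearer to the TSS of Acot10, which is 217 kb from that of Cdh12.

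Cdh13, the GPI-anchored T-cadherin, spans 1041 kb (chr8:118283733-119324921, plus strand). It had 49 regions, 24 shared and 7 with all 3 antibodies. Ab1 marked 48 regions, ab2 marked 25 and ab3 marked 7. The strongest region of the whole set lay 20.5 kb upstream of its TSS and scored 3100 with ab1, 2259 with ab2 and 327 with ab3. A second region with an ab1 score of 3100 lay 875 kb into the gene in intron 7, where ab2 scored 1222 and ab3 scored 287. The value 3100 was shared by 661 of the 51841 ab1 peaks and only 69 were higher, so these 2 regions cannot be ranked by ab1. A further pair with ab1 scores of 846 and 1002 lay 132160 and 139083 bp from the TSS. Intron 1 held 11 of the 24 shared regions in 222 kb, and 7 of the 24 lay nearer to the TSS of Hsbp1, which is 1061 kb from that of Cdh13.

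Per 100 kb of locus, the shared regions came to 7.18 at Cdh4 (exact Poisson 95% interval 5.13 to 9.78), 2.37 at Cdh11 (0.868 to 5.15), 2.10 at Cdh13 (1.35 to 3.13) and 1.87 at Cdh2 (0.687 to 4.08). They came to 1.55 at Cdh7 (0.423 to 3.98), 1.22 at Cdh8 (0.448 to 2.65) and 0.918 at Cdh12 (0.369 to 1.89). The lowest were Cdh6 with 0.816 (0.0989 to 2.95), Cdh10 with 0.677 (0.082 to 2.45) and Cdh9 with 0. The intervals cover counting error only and treat regions as independent. The interval of Cdh4 lay above those of Cdh13 and of the genes below it, and it met that of Cdh11 only between 5.13 and 5.15. Below Cdh4, each gene overlapped its neighbours in this order. Per unit of length Cdh13 was less conspicuous, and its density was reached by 5953 of the other 21937 protein-coding loci (27.1%). That of Cdh4 was reached by 279 (1.27%), and 8 other loci had 40 or more shared regions.

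Over the 10 genes the median density was 1.39 shared regions per 100 kb, beside 0.95 for all 21938 protein-coding loci and 1.31 for the 2434 whose transcript is at least 100 kb long, as all 10 are. A density above the median of all loci was found in 6 of the 10, and above the median of long genes in 5. At least 1 shared region was present in 9 of the 10 loci, beside 67.6% of protein-coding loci and 89.3% of those with a transcript of at least 100 kb. Without ab1, or without ab2, Cdh6, Cdh7 and Cdh10 kept no shared region. With peak scores of at least 100, Cdh6 and Cdh10 kept none. Pooled over the loci, the density was 2.13 per 100 kb, and 1.43 when Cdh4 was left out, beside 1.67 for long genes. Of the long genes, 99% had a lower density than Cdh4, 74% than Cdh11, 69.8% than Cdh13 and 64.7% than Cdh2. The share was 57.8% for Cdh7, 47% for Cdh8, 37% for Cdh12, 32.9% for Cdh6 and 28.6% for Cdh10, and Cdh9 was at 0. Counted over all peaks of ab1, shared or not, the median density was 2.24, over those of ab2 1.45 and over those of ab3 0.222 (mean 1.31, SD 1.02, n = 3), and without ab1, or without ab2, the median of shared regions was 0.222. With peak scores of at least 100 it was 0.888.

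**Figure D3:**
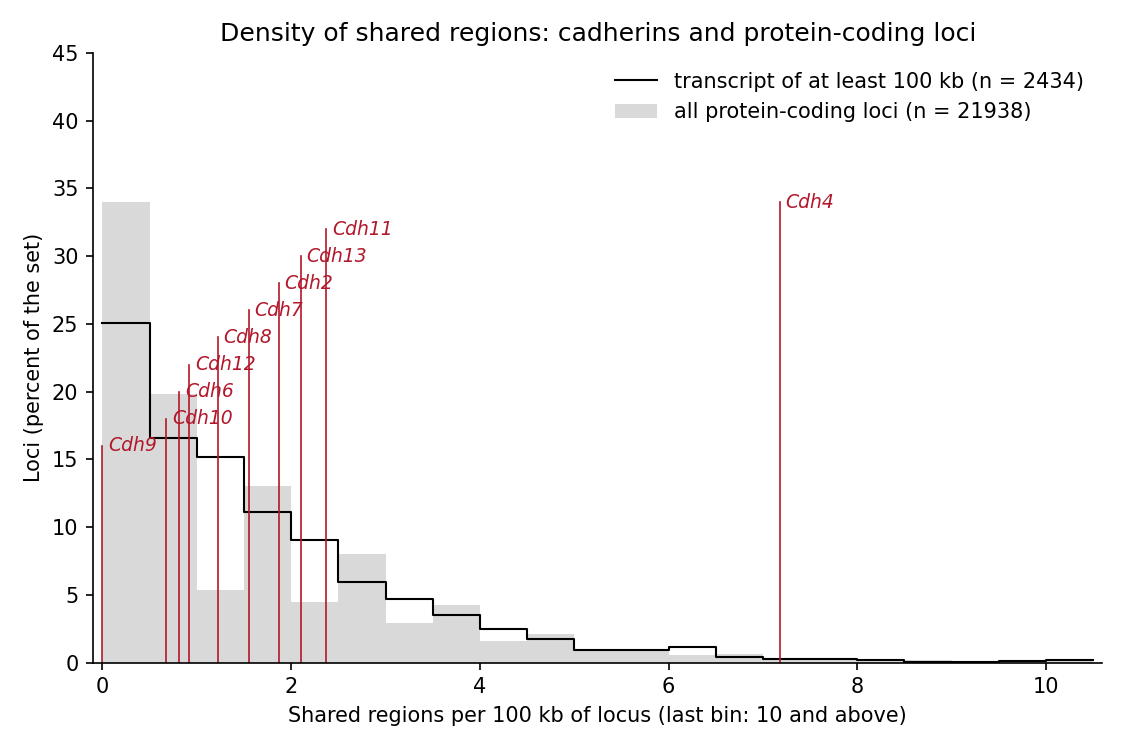
Shared regions per 100 kb of locus (horizontal axis) against the percent of loci in each bin (vertical axis), for all protein-coding loci (grey bars) and those with a transcript of at least 100 kb (black line), with each cadherin as a red line whose height has no meaning. Cdh4 at 7.18 lies far to the right, and the other 9 lie at or below 2.37.

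Shared regions marked the start of 7 of the 10 genes, Cdh2, Cdh4, Cdh7, Cdh8, Cdh10, Cdh11 and Cdh13, within 1 kb of the TSS of the longest transcript. Genome-wide, 20.8% of protein-coding genes had such a region, and 32.5% of those with a transcript of at least 100 kb. Scores at these starts ran from 71.4 at Cdh10 to 2199 at Cdh8 with ab1 and from 60.5 at Cdh10 to 839 at Cdh2 with ab2, and only Cdh2 and Cdh8 were also called with ab3. Without ab1, or without ab2, these 2 genes were therefore the only ones left. The start of Cdh13, 588 bp into the gene, scored 347 with ab1 and 155 with ab2. Cdh6 had the single weak ab1 peak given above, and Cdh9 and Cdh12 had none.

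Although most starts were marked, they made up a small part of the regions. The 7 regions were 7.22% of the 97 (3.54 to 14.2), beside 12.7% of the shared regions of the genome that lay within 1 kb of a protein-coding TSS. The genome value takes any protein-coding TSS and is not limited to long genes. The cadherin value takes only each gene's own TSS in long loci, so the shares are not like for like. Introns of the members held 84 of the 97 (86.6%, 78.4 to 92.0), beside 70.3% for the loci of long genes and 29.9% for all protein-coding loci. This share is tied to how the locus is drawn, and it was 98.8% with no ends added to the transcript. The first intron held 23, exons held 1, 7 lay upstream and 5 downstream. The median distance to the member's own TSS was 139 kb, with a lowest of 0.118 kb and a highest of 875 kb, and 59 regions (60.8%) lay over 100 kb away. For 28 of the 97 another protein-coding TSS was nearer, so the list by locus is not a list of assigned targets. Neither count was set beside that of other long genes, so these distances cannot be called particular to the cadherins.

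Ab1 and ab2 ranked the 97 regions in a similar order. Ab1 scores ran from 53.1 to 3100 with a median of 260 (278 over shared regions of the genome), and ab2 scores from 50.9 to 2259 with a median of 124 (140 in the genome). Spearman's rho between them was 0.802 over the 97 regions, beside 0.845 genome-wide. Over the 21 regions of all 3 antibodies, rho was 0.810 between ab1 and ab3 and 0.723 between ab2 and ab3. The points share the tissue, and those of ab2 and ab3 share the GFP control, so these values describe the lists and are not a test.

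Which regions ab3 marked followed the height of the other antibodies. The 21 regions with all 3 antibodies had ab1 scores from 316 to 3100 with a median of 1045, and those with exactly 2 had scores from 53.1 to 1002 with a median of 207. The ranges overlapped between 316 and 1002. Ab3 itself scored from 57.0 to 347 with a median of 104. The regions with ab1 alone were weaker again, from 50.6 to 165 with a median of 71.7. The median width of the shared regions was 842 bp, beside 865 bp in the genome, and the range was 416 to 3957 bp.

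**Figure D4:**
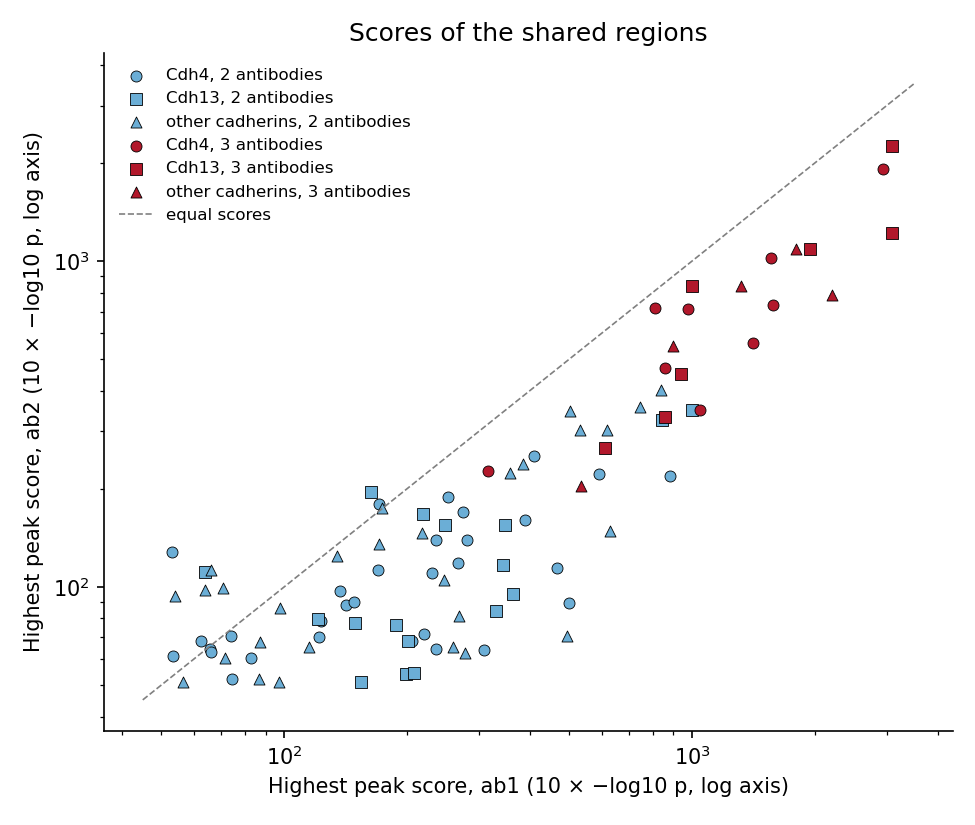
Highest ab1 score (horizontal, log axis) against highest ab2 score (vertical, log axis) of the 97 shared regions, in units of 10 × −log10 p. Red points have all 3 antibodies, blue points have ab1 and ab2, and the dashed line marks equal scores. The scores were not scaled between antibodies. The points rise together, and the red points fill the upper right.

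The extended E-box was present in the central 200 bp of 63 of the 97 shared regions (64.9%, 55.0 to 73.7), beside 59.6% of the shared regions of the genome. In windows of equal length placed 1000 bp beyond the region ends, it was present at 24.7% on one side and 20.6% on the other, beside 22.3% on both sides genome-wide. The cadherin regions thus carried the motif at their centres far more often than next to them, at a rate close to that of the genome. Over the 170 single peaks of ab1, in shared regions or not, the share was 67.1%, over the 107 of ab2 it was 65.4% and over the 22 of ab3 it was 59.1% (mean 63.9%, SD 4.21, n = 3). Of the cores, with or without the extra base, CAGATG on either strand was present in 46.4% of the regions (43.1% in the genome), CAGCTG in 32.0% (28.1%) and CATATG in 14.4% (11.7%). At least 2 extended E-boxes were found in 22 regions (22.7%, 15.5 to 32.0), beside 22.2% of the shared regions of the genome. By gene, the motif was present in 25 of 40 regions at Cdh4, 15 of 24 at Cdh13 and 6 of 7 at Cdh12, and in 4 of 6 each at Cdh2, Cdh8 and Cdh11.

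**Figure D5:**
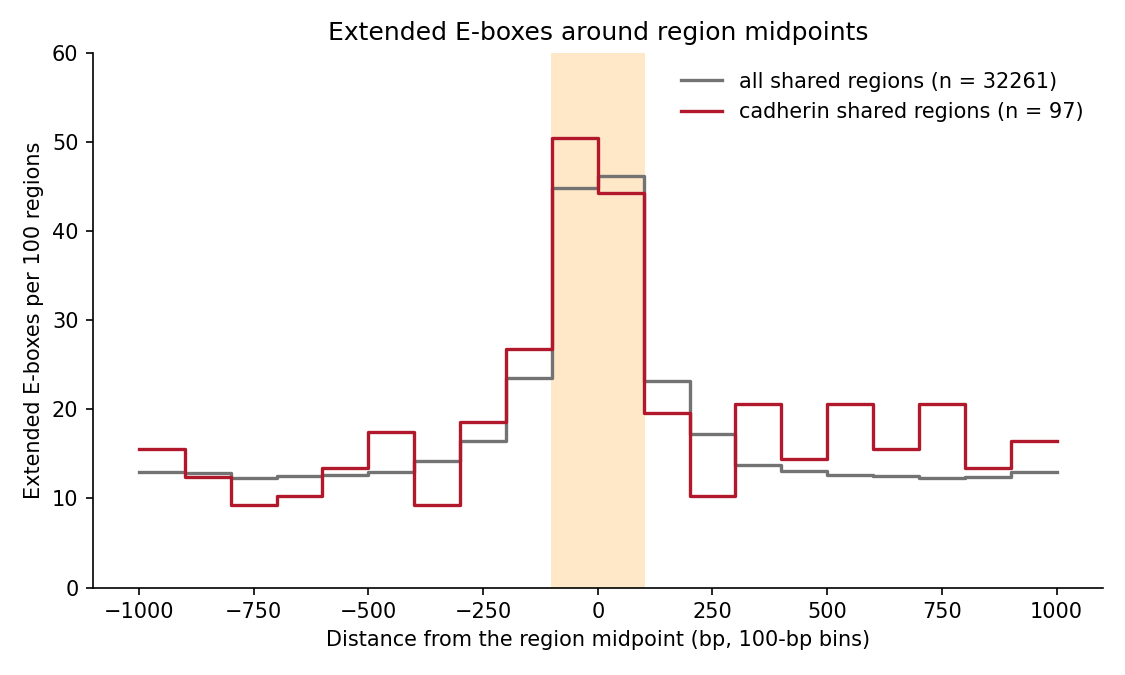
Extended E-boxes per 100 regions (vertical axis) in bins of 100 bp by distance from the region midpoint (horizontal axis), for the 97 cadherin regions (red) and all 32261 shared regions (grey), with the central 200 bp shaded. Both curves peak in the bins next to the midpoint, at 50.5 and 44.3 for the cadherins and 44.9 and 46.2 for all regions, and each bin of the red curve holds between 9 and 49 motifs.

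The motif was rare at the gene starts. It was present in 1 of the 7 regions within 1 kb of a member TSS (14.3%, 2.57 to 51.3), the Cdh11 window printed above, and in 62 of the 90 farther off (68.9%, 58.7 to 77.5). In the genome the shares were 20.8% within 1 kb of a protein-coding TSS and 65.3% farther away. The regions near the starts were richer in G and C, with 54.5% to 73.5% in their central 200 bp and a median of 61.0%, beside a median of 50% for the others. The part of base composition in the difference was not tested.

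Among the regions that all 3 antibodies marked, 9 of 21 held the motif in the centre (42.9%, 24.5 to 63.5), beside 63.4% of such regions in the genome, while those with exactly 2 antibodies held it in 54 of 76 (71.1%, 60 to 80), beside 58.6% in the genome, and those with 1 antibody in 55 of 77 (71.4%, 60.5 to 80.3), beside 57.1% of single-antibody regions in the genome. The share of the first group depended on the window. Centred on the highest peak instead of the region midpoint, it was 47.6% (28.3 to 67.6), and anywhere in the region it was 95.2% (77.3 to 99.2), beside 64.1% and 96.1% in the genome. The regions with exactly 2 antibodies gave 65.8% around the highest peak and 92.1% anywhere in the region. The whole-region search covers unequal lengths, with a median of 1387 bp for all 3 antibodies and 762 bp for exactly 2. Per kb of region, the median number of extended E-boxes was 2.21 with all 3 antibodies and 2.56 with exactly 2, beside 2.45 and 2.13 in the genome. In the genome, the median width of regions of all 3 antibodies was 1071 bp. Those without a motif in the centre include some of the strongest, such as the Cdh2 and Cdh8 starts and the intron 7 region of Cdh13.

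The other cadherins and the cytoplasmic partners give a measure of how the 10 compare with their relatives. The 13 other cadherins held 49 shared regions, with the most at Cdh22 (17), Cdh23 (6), Cdh15 (5) and Cdh18 (5) and the fewest at Cdh5 (1), Cdh19 (1), Cdh16 (0) and Cdh24 (0), and their median density was 1.2 per 100 kb (0 to 7.61). The highest value was that of Cdh22, beside 7.18 for Cdh4. The 7 catenin genes held 64, with the most at Ctnna2 (27), Ctnnd2 (15) and Ctnna3 (14) and the fewest at Ctnna1 (2), Jup (2) and Ctnnd1 (0), and their median was 1.57 (0 to 3.15). Ctnna2 is the alpha-catenin of neurons and Ctnnd2 is delta-catenin, both partners of the cadherin tail.

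Other adhesion families lay in the same range. The median density was 2.08 per 100 kb for 10 delta protocadherins (0 to 4.78) and 1.78 for 5 IgLON genes (0 to 2.90), against 1.39 for the 10 cadherins (0 to 7.18), and the ranges overlapped. Pooled over loci the order differed, with 1.74 for delta protocadherins, 1.85 for IgLON genes and 2.13 for the cadherins (1.43 without Cdh4). The families also differ in median transcript length, at 76.3 kb, 968 kb and 208 kb in the same order. The 5 genes that the study used as non-targets in its qPCR held between 0 and 2 shared regions each, with a median density of 0.978. A difference between these families was not tested.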

How the data were processed

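NEUROD2 ChIP-Seq libraries of E14.5 cortex, 1 for each of 3 antibodies, were used as peak lists. The 2 GFP libraries entered only as the controls of the peak caller, and read totals were not used here. On Galaxy, the authors aligned single-end reads to mm10 (Bowtie), discarded duplicates and multiply mapped reads, and ran MACS once per antibody with the GFP reads of the matching host species as control. The deposited value of each peak is a score, 10 times the −log10 p-value, which was not scaled between libraries. Scores of different antibodies are therefore on different scales, and the summed score used to pick each gene's strongest region weights ab1 most. Peaks called against more reads can pass the cutoff at weaker sites.

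Overlaps of at least 1 bp merged peaks into regions. No peak lay past the end of its chromosome in GRCm38.p6, and 5 of the 94621 peaks lay outside chromosomes 1 to 19, X and Y. Genes were those of GENCODE release M21, and motif letters came from the reference, which is C57BL/6J and not BALB/c. Extended E-boxes were sought within the 200 bp centred on a midpoint. Shares carry Wilson 95% intervals and densities exact Poisson intervals, which cover counting error only. With 1 library per antibody no test was made, and the spread is the SD over the antibodies. A peak list holds no expression values, so the tissue label was not checked against marker genes.

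All 10 genes were named, each with its strongest shared region and any region within 1 kb of its TSS. Other cadherins and catenins were named as the 3 with the most and the 3 with the fewest shared regions, with ties. The genes and lists were chosen with earlier results of these data known. Alternatives were scores from 100 up, merging only where 50% or more of the shorter peak overlapped, other locus ends, other windows and motifs, and each antibody left out. The tools were scipy 1.17.1, matplotlib 3.10.9, pysam 0.24.0, pandas 2.3.3 and numpy 2.4.6 under Python 3.11.15. Merging, placing and motif search were tested on simulated data before use.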

Additional observations from a re-analysis of the deposited data

How the results depend on the processing

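With peak scores of at least 100, the 174 regions became 91, the 97 shared regions 54 and the 21 regions of all 3 antibodies 11, and the median density fell from 1.39 to 0.888 per 100 kb. Leaving out each antibody in turn gave 107 to 174 regions, 21 to 97 shared regions, a median density of 0.222 to 1.39 per 100 kb, 2 to 7 shared regions within 1 kb of a TSS, an E-box share of 47.6% to 64.9% and an intron share of 71.4% to 86.6%. For shared regions, density, TSS count and E-box share, the low ends came from leaving out ab1 or ab2. Either choice takes every region that only these 2 antibodies share out of the shared set. The lowest region count and intron share came from leaving out ab1 only. Without ab2 these were 170 regions and 81%. The E-box share rose to 77.3% in a central 400 bp and to 90.7% with any CANNTG, by construction. The intron share was 98.8% with no ends added to the transcript and 97.7% with ends of 10 kb. Among regions of all 3 antibodies, the E-box share over the whole region was 95.2%, an alternative chosen after seeing the data. Of 80 counts by gene and setting, 50 stayed within 1.5 times the value reported, and these include Cdh9, whose count was 0 in every setting and could not move. Without ab1, or without ab2, only 1 of 10 did, which was Cdh9, and 4 of 10 did with scores of at least 100. All 10 did with an overlap of at least 50% or without ab3, and with the span of all transcripts only Cdh12 did not, with 11 in place of 7. With no ends added to the transcript 7 of 10 did, and with ends of 10 kb 8 of 10. In these settings the median density was 1.15 and 1.05 per 100 kb, and 16 and 17 regions had all 3 antibodies. No paired analysis was possible because no result comes from a test between groups. The GFP libraries were not analysed here as data, so the background at these loci was not measured. Cdh6 and Cdh10 rest on 2 shared regions each, with scores up to 113, and Cdh9 has none.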
